A study of Mus musculus with 4 samples.

Results

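Conventional natural killer (NK) cells were examined in droplet single-cell RNA sequencing (10x Genomics) of mouse liver. They were chosen by transcripts, counted as UMIs, molecular barcodes that mark single captured transcripts. A member had at least 1 UMI over Ncr1 and Klrb1c, at least 1 over Klra8, Klra4, Itgam and Eomes, and 0 UMIs of Cd3d, Cd3e, Cd3g, Cxcr6, Cd79a and Csf1r. Barcodes entered with at least 250 detected genes and at most 25% of UMIs from mitochondrially encoded genes. Of 24030 kept cells, 551 were members. There were 52 in Control 1, 78 in Control 2, 211 in KO 1 and 210 in KO 2.

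The livers came from male mice of the Cyr61fl/fl strain, in which the gene is flanked by loxP sites, aged 24 weeks and fed a NASH diet for 12 weeks. Both groups share strain, sex, age and diet, and differ in a genotype given as Control or Cyr61 KO, with 2 libraries each. The labels do not name a Cre driver, so the cells that lost the gene are not known here, and they do not say whether each library was 1 animal. The p-values therefore reflect no more than how far apart these libraries lie. Tissue had been frozen in serum with DMSO, thawed, digested and depleted of dead cells. Cyr61 codes for a secreted protein of the matrix and is named Ccn1 in the files. It had 183, 146, 0 and 12 UMIs in the kept cells of Control 1, Control 2, KO 1 and KO 2. In NK cells it had 4 UMIs, all in 1 cell of Control 1, and 0 in the other 3 libraries, so its loss could not be assessed within NK cells.

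NK cells are innate lymphocytes that kill stressed or infected cells with perforin and granzymes and secrete interferon gamma and chemokines. They read their targets through activating and inhibitory receptors, which in mice include the Ly49 family (Klra genes) and the NKR-P1 and NKG2 families (Klrb and Klrc genes), coded in a cluster on chromosome 6. In liver they circulate through the sinusoids beside resident type 1 innate lymphoid cells (ILC1), and they mature from a state with CD27 to a state with CD11b, KLRG1 and the transcription factor ZEB2.

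The genes that chose the cells are known by their products: Ncr1 codes for NKp46, Klrb1c for NK1.1, Klra8 for Ly49H, Klra4 for Ly49D and Itgam for CD11b, while Eomes codes for a transcription factor of the NK lineage. Ncr1 lies on chromosome 7 (4337724 to 4345164, plus strand, GRCm38), Klra8 on chromosome 6 (130115226 to 130129898, minus strand) and Klra4 on chromosome 6 (130043731 to 130067271, minus strand). Their promoter windows from RefSeq (GRCm38.p6, from 250 bases before to 50 bases after the gene start) show what the receptor genes share. When the windows of the 6 Ly49 genes with enough counts for a test were aligned end to end, Klra8 and Klra4 were identical in 86.0% of aligned columns and Klra3 and Klra9 in 85.0%, against 45.3 to 50.9% for the other 13 pairs. Both pairs are shown on the gene's own strand (chr6:130129849-130130148 for Klra8, chr6:130067222-130067521 for Klra4, chr6:130337577-130337876 for Klra3 and chr6:130193063-130193362 for Klra9, all minus). Capitals mark bases that differ from, or were aligned to no base in, the partner's window. The Klra3 and Klra9 windows are offset, and the runs of capitals at the start of Klra3 and the end of Klra9 reflect that.
Klra8: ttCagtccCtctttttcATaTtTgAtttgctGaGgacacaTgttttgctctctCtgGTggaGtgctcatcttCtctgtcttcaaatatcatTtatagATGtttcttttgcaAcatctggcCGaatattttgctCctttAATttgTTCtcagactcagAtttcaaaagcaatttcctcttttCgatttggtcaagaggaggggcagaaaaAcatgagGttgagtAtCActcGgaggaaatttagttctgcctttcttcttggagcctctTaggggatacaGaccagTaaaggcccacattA
Klra4: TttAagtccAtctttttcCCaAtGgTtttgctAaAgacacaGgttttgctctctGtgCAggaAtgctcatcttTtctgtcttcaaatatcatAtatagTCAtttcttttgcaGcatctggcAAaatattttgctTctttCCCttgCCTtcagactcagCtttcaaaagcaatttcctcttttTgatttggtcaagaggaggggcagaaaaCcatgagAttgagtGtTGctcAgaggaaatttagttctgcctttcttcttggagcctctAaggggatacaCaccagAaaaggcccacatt
Klra3: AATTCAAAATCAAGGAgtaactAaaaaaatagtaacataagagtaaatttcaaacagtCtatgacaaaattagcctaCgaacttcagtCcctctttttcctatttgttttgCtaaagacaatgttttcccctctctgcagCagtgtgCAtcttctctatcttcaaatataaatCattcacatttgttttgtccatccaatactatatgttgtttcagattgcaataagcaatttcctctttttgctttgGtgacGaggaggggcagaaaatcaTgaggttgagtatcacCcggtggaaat
Klra9: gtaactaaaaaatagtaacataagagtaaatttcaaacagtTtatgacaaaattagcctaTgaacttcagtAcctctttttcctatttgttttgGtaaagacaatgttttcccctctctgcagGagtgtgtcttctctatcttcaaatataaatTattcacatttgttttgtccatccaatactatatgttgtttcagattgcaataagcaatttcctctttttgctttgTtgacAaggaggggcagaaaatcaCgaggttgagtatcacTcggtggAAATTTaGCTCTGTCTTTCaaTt

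The Ncr1 window (chr7:4337465-4337764, plus strand) and those of the NK cell surface genes with the smallest p-values between the groups, Ly6c2 (chr15:75111922-75112221, minus strand) and Cd160 (chr3:96829302-96829601, minus strand), were searched on both strands for 3 motifs. These were the RUNX core TGTGGT, the T-box motif TCACACC and the E-box CACCTG, which ZEB proteins bind. Capitals mark the matches, of which Ncr1 held 2 to the RUNX core, Ly6c2 held 1 and Cd160 held 1 to the RUNX core and 1 to the E-box.
Ncr1: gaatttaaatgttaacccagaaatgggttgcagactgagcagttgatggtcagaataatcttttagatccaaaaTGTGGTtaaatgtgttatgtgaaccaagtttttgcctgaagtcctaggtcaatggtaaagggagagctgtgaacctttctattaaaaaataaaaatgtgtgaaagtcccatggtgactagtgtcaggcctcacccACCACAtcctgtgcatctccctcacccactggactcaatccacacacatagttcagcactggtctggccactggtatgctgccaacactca
Ly6c2: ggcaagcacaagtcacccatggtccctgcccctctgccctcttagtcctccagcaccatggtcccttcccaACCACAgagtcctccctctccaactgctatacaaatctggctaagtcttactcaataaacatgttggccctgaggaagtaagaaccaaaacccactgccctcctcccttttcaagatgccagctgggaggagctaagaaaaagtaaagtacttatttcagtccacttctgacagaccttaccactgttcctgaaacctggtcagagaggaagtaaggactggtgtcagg
Cd160: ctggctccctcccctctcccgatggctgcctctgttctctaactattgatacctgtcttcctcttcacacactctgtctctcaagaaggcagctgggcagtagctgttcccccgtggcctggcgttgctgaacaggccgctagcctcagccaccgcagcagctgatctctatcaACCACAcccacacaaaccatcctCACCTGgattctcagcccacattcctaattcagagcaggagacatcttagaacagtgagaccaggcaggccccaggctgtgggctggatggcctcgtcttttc

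Of 27025 promoter windows of the same length, 16.9% held the RUNX core, 20% the E-box and 3.96% the T-box motif. Of the late maturation genes described further on, 7 of 13 with a window held the RUNX core, 2 the E-box and 0 the T-box motif. Of the early maturation genes, 4 of 11 held the RUNX core, 4 the E-box and 1 the T-box motif. A match describes letters in a window and is no evidence of binding.

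The libraries differed in depth. They held 8290677 to 20537236 UMIs in 4852 to 7253 barcodes, and the median over kept cells was 1225, 2241, 1913 and 2869 UMIs in the order Control 1, Control 2, KO 1, KO 2, which is used throughout. NK cells had medians of 1592.5, 3079.5, 1976 and 2728 UMIs and summed to 100544, 248863, 494949 and 679563 UMIs, so the Control profiles rested on fewer counts. Pairs of libraries shared 6 to 22 barcodes, none of them between NK cells.

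The label was better borne out in KO than in Control members. Of its markers, only Gzma (granzyme A, a protease of cytotoxic granules) lay outside the rule, and more Control than KO members lacked it. Gzma was found in 34 of 52, 49 of 78, 178 of 211 and 198 of 210 members. Its mean level was 6512 CPM, the count of a gene per sum of counts scaled to a round total, against 228 CPM in T cells and 69.6 CPM in B cells, without scaling. Klra7, Klra9 and Klra3 averaged 485, 227 and 164 CPM in NK cells and had 0 UMIs in the 100 ILC1-gated cells, which carried Ncr1 or Klrb1c and Cxcr6 and lacked Klra8, Klra4, Itgam and Eomes. Tmem176b, Il7r and Ctla4, which are high in liver ILC1, were lower in NK cells than in ILC1-gated cells in every library. These contrasts follow from how the cells were chosen and were not tested.

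The members differed in how they met the rule. Ncr1 was seen in 391 members, Klrb1c in 441 and both in 281. Klra8 was seen in 252, Klra4 in 245, Itgam in 246 and Eomes in 309, and 38, 42, 61 and 93 members entered on that gene alone. Just inside the rule, 148 members had exactly 1 UMI over Ncr1 and Klrb1c, and 139 had exactly 1 over the second set of genes. Just outside it, 470 kept cells failed with 0 UMIs of the second set, 550 with 0 of Ncr1 and Klrb1c, and 97 with a single UMI of an excluded gene. The 470 cells numbered 104, 104, 147 and 115 by library, or 2.20, 1.47, 2.05 and 2.27% of kept cells. In these cells alone the groups overlapped. Added to the members, they leave both KO libraries above both Control libraries, but by a smaller ratio. The size of the NK share difference given below therefore depends on the second set. A share without that step was not tested. Over all Ly49 genes, 81 members had a UMI of none, 122 of 1 gene, 146 of 2, 121 of 3 and 81 of 4 or more.

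Some members also held transcripts of other cell types, unevenly between libraries. Of the listed B cell and antigen presentation genes, H2-Eb1 stood at 723 CPM in Control 1 and 15.4 to 30.6 CPM elsewhere, with 59 of the 70 UMIs of Control 1 in 1 cell. S100a9, a neutrophil gene, stood at 232 CPM in Control 2 and 4.10 to 31.0 CPM elsewhere, with 39 of 53 UMIs in 1 cell. The haemoglobin gene Hbb-bs had 1334 UMIs in KO 1, of which 1333 lay in 1 cell, and Fabp1 of hepatocytes had 97 UMIs in KO 2, of which 96 lay in 1 cell. Summed over each marker list, the B cell list stood at 3407, 428, 341 and 277 CPM, the neutrophil list at 41.3, 498, 44.3 and 16.4 CPM, and the macrophage list at 816, 245, 577 and 277 CPM. The stromal list stood at 279, 4.37, 0 and 0 CPM and the T cell list at 568, 708, 542 and 548 CPM. Dendritic cell and basophil or mast cell lists were at 0 to 31.0 CPM. At least 1 UMI of 9 B cell, myeloid and dendritic cell genes was held by 15, 27, 46 and 38 members. At least 1 UMI of 5 ILC1 genes (Itga1, Cd200r1, Il7r, Tmem176a, Tmem176b) was held by 10, 10, 22 and 22 members. Results are therefore also given without those members where that moves them.

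The first comparison asked whether NK cells took a different share of liver cells without Cyr61. They made up 1.10% of kept cells in Control 1, 1.10% in Control 2, 2.95% in KO 1 and 4.15% in KO 2. The KO libraries lay above both Control libraries, with a mean of 3.55% ± 0.847 (SD, n = 2) against 1.10% ± 0.00143 (SD, n = 2), a ratio of 3.22. The exact binomial 95% intervals, which cover counting error only, were 0.824 to 1.44%, 0.871 to 1.37%, 2.57 to 3.37% and 3.61 to 4.73%. In the edgeR quasi-likelihood test on cell numbers of 6 gated classes, the NK share was higher in KO by 1.68 ± 0.36 (SE) on the log2 scale (Benjamini-Hochberg adjusted p = 0.00357 over the 6 classes). The exact permutation test gave p = 0.3333, the smallest that 2 against 2 libraries allow.

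Other classes moved as well, and shares of one whole depend on each other. B cells were higher in KO (log2 0.87, adjusted p = 0.0456) and Csf1r-positive myeloid cells lower (log2 -1.15, adjusted p = 0.0188), while T cells (log2 -0.05, adjusted p = 0.871) and ILC1-gated cells (log2 0.42, adjusted p = 0.435) did not pass. The B cell call was lost in several alternatives, with an adjusted p of 0.129 when all cells were thinned to 1000 UMIs, 0.411 without Control 1 (log2 0.48), 0.402 without KO 1 and 0.486 without KO 2. The myeloid call was lost without Control 1 (adjusted p = 0.147), KO 1 (0.228) or KO 2 (0.449). Set against T cells, NK cells numbered 2.61, 2.39, 7.48 and 9.08 per 100. For each ILC1-gated cell there were 3.25, 2.89, 9.17 and 6.18 NK cells, from 16, 27, 23 and 34 ILC1-gated cells. On both scales the KO libraries lay above both Control libraries. With all cells thinned to 1000 UMIs, as described next, the ratio to ILC1-gated cells was 4, 6.33, 8.69 and 8.18, so the ratio of the group means went from 2.50 to 1.63.

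A gate on UMIs depends on depth, so the share was recomputed with every cell thinned to 1000 UMIs and shallower cells left out. Of the members as gated, at least 41 in each library had that depth. The share was then 0.824, 0.683, 2.02 and 3.07%. Without the receptor genes of chromosome 6 in the gate it was 0.530, 0.677, 1.5 and 2.63%. Among members with at least 1 Gzma UMI it was 0.721, 0.691, 2.49 and 3.91%. The groups did not overlap under any of these gates, and the difference passed the test in each. All of them still used genes whose levels differed between the groups. In thinned members, Klrb1c was held by 36.6, 28.6, 55.2 and 61.2% and Itgam by 14.6, 14.3, 30.2 and 27.4%. Ncr1 went the other way, at 48.8, 44.3, 36.0 and 41.8%. A higher share of NK cells and easier entry through higher marker levels therefore cannot be told apart. Leaving out Control 1 gave the same log2 difference of 1.68 with an adjusted p of 0.0505, which misses the threshold of 0.05.

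**Figure D1:**
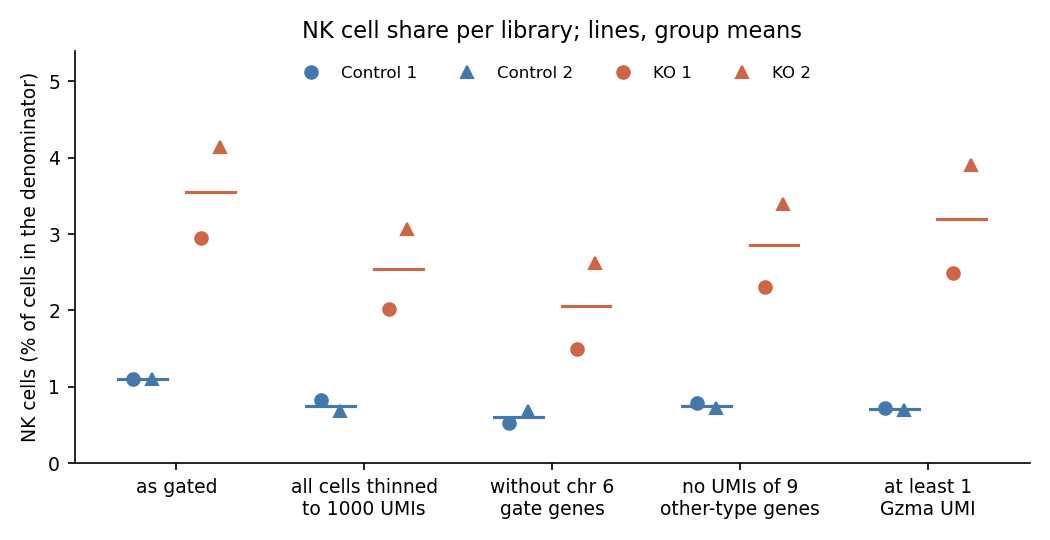
NK cells as a percentage of cells in each library (points) and group means (lines), as gated and under 4 other gates. Both KO libraries lie above both Control libraries in each column, at 2.95 and 4.15% against 1.10 and 1.10% as gated.

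The second comparison asked which genes differed within NK cells, on UMI counts summed per library. In these sums, fewer expressing cells and less RNA per cell cannot be told apart. With edgeR's quasi-likelihood test, 0 of 4875 genes passed a Benjamini-Hochberg adjusted p of 0.05 (0.0%). At an unadjusted p under 0.05 there were 535 (11%), 265 higher (5.44%) and 270 lower (5.54%) in KO. DESeq2 called 16 genes (0.328%), 5 higher (0.103%) and 11 lower (0.226%), and the number of edgeR calls ran from 0 to 75 over the alternatives. The sentences on genes that follow therefore give values, as CPM scaled by TMM (trimmed mean of M values), and no gene is called changed by the edgeR test. Both KO libraries lay above both Control libraries in 1088 genes (22.3%) and below them in 1018 (20.9%), the background for the counts that follow. Such genes are called separate below. Without TMM scaling the median log2 ratio over all genes was 0.18, so values are relative to that scaling.

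Smallest p-values fell on AY036118, Cd160 and Ly6c2, each with an adjusted p of 0.0532 in edgeR. Apart from the 3 most abundant genes of a list, the markers and the Klr genes, the genes named here and below were chosen after their values were seen. Ly6c2, which codes for the surface protein Ly6C of mature NK cells, memory T cells and monocytes, stood at 217, 78.6, 575 and 582 CPM. Its log2 fold change was 2.18 ± 0.34 (SE), and both KO libraries were above both Control libraries, which also differed from each other. Cd160, a receptor found on NK cells and ILC1, stood at 176, 175, 55.9 and 39.6 CPM, with a log2 fold change of -1.89 ± 0.29. For Cd160 the Control libraries were nearly equal and the KO libraries lower. AY036118, a transcript annotated on chromosome 17, stood at 3397, 2622, 632 and 173 CPM. It took 0.327, 0.241, 0.0663 and 0.0187% of NK cell UMIs and 0.342, 0.233, 0.0681 and 0.0181% of T cell UMIs, the same order of libraries in both cell types.

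Genes of late maturation were mostly higher in KO. Of 16 such genes, all measured, 13 had both KO libraries above both Control libraries and 1 below them, 10 had an unadjusted p under 0.05 and 0 passed the adjusted edgeR test. Their median log2 fold change was 0.84, against 0.00 over all 4875 genes. Without Itgam, which chose the cells, 12 of 15 were above and 1 below, with a median of 0.89, and Gzmb and Prf1 also belong to the granule list described further on. DESeq2 called 1 of them, Zeb2.

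Zeb2, a transcriptional repressor needed for terminal NK maturation, stood at 206, 223, 499 and 557 CPM (log2 1.30 ± 0.22, edgeR adjusted p = 0.0998, DESeq2 adjusted p = 0.0173). Klrg1, an inhibitory receptor of fully matured NK cells, stood at 10.3, 43.7, 100.3 and 112 CPM, from 1, 10, 52 and 82 UMIs. Spn, the sialoprotein CD43, stood at 103, 149, 279.6 and 288 CPM. Cma1, a chymase gene active in mature mouse NK cells, stood at 103, 139.8, 241 and 250 CPM. In these 4 genes the groups did not overlap.

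S1pr5, the receptor that lets NK cells leave lymphoid tissue, stood at 41.3, 39.3, 82.9 and 104 CPM. Lgals1 (galectin 1), the list's most abundant gene, had KO only slightly above Control, at 1445, 1398, 1473 and 1581 CPM. Vim (vimentin) overlapped at 527, 363, 451 and 605 CPM and Itgax (CD11c) was the only gene with KO below Control, at 196, 192, 172 and 123 CPM.

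Genes of early maturation were more often lower than higher in KO, though 0 passed the adjusted edgeR test. Of the 13 described here, all measured, 1 had both KO libraries above and 7 below both Control libraries, 1 and 6 had an unadjusted p under 0.05, and the median log2 fold change was -0.47. Besides Cd160, the lower ones included Cd7, an immunoglobulin-family surface protein, at 506, 481, 247 and 213 CPM (log2 -1.09 ± 0.21). Ltb, which codes for lymphotoxin beta, stood at 206, 393, 147 and 117 CPM. Xcl1, a chemokine that draws dendritic cells, stood at 1394, 1398, 833 and 878 CPM. Kit, the stem cell factor receptor, stood at 92.9, 69.9, 42.4 and 12.3 CPM from 9 to 22 UMIs. In these genes both KO libraries lay below both Control libraries.

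Against that direction, Emb (embigin) stood at 341, 389, 546 and 520.5 CPM. Cd27 itself, which marks the earlier state, stood at 103, 127, 104 and 104 CPM, with no separation. Leaving out Control 2 gave 6 positive and 7 negative early genes with a median of -0.24, while the late genes kept 15 of 16 positive.

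**Figure D2:**
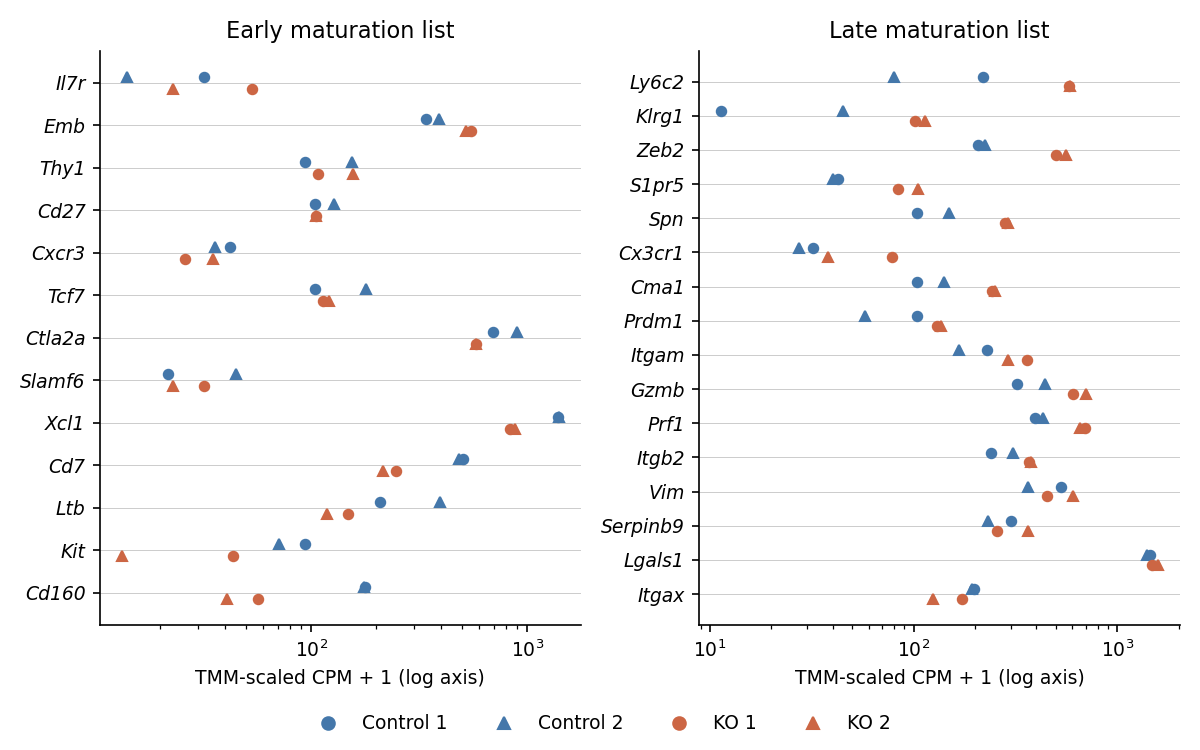
TMM-scaled CPM (log axis, 1 added) of the early and late maturation genes in NK cells of each library, ordered by fitted fold change. In the late list 13 of 16 genes have both KO libraries above both Control libraries, and in the early list 1 of 13.

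Shares of cells were also read at matched depth. With cells thinned to 1000 UMIs, 17.1, 17.1, 30.2 and 30.8% of members had Klrg1 or Itgam and no Cd27, and 2.44, 10, 7.56 and 8.96% had Cd27 and neither of the others. The first share is a description only, because Itgam chose the cells and carried most of it: thinned, an Itgam UMI was held by 14.6, 14.3, 30.2 and 27.4% of members. Klrg1, which did not choose them, was held by 2.44, 5.71, 6.98 and 9.95% of thinned members (1.92, 7.69, 14.7 and 21.9% unthinned). Without thinning the first share was higher in KO too, at 43.6 and 45.7% against 32.7 and 25.6% in Control. A Ly6c2 UMI was held by 12.2, 5.71, 33.1 and 31.8% of thinned members (11.5, 7.69, 35.1 and 41.9% unthinned). In thinned B cells, which are used as background, the share was 1.52 to 2.30% (1.92 to 4.34% unthinned), at median depths of 1161 to 2436 UMIs before thinning.

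ILC1 genes were read beside these, since the gate could hold such cells. Cd160 and Cd7 are high in ILC1-gated cells, at 458 and 1564 CPM on average against 108 and 354 CPM in NK cells, and Ly6c2, Zeb2 and Cma1 are low there. The 6 defining ILC1 markers in NK cells summed to 279, 91.8, 104 and 45.1 CPM, so the groups overlapped. Without members holding any of 5 of those genes, the log2 fold change of Ly6c2 was 2.33 (adjusted p = 0.00406) and that of Cd160 -1.52 (adjusted p = 0.173). Among members with at least 1 Gzma UMI, Ly6c2 was at 2.22 (adjusted p = 1.57e-07), Zeb2 at 0.91 (adjusted p = 0.107), Cd160 at -1.32 (adjusted p = 0.184) and Cd7 at -0.14 (adjusted p = 0.923). In the same members the late list had a median of 0.37, and the early list a median of -0.14, with 3 positive and 6 negative of 9 tested. Members with 0 Gzma UMIs numbered 18 of 52, 29 of 78, 33 of 211 and 12 of 210. Their part in the differences was not tested beyond these values.

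**Figure D3:**
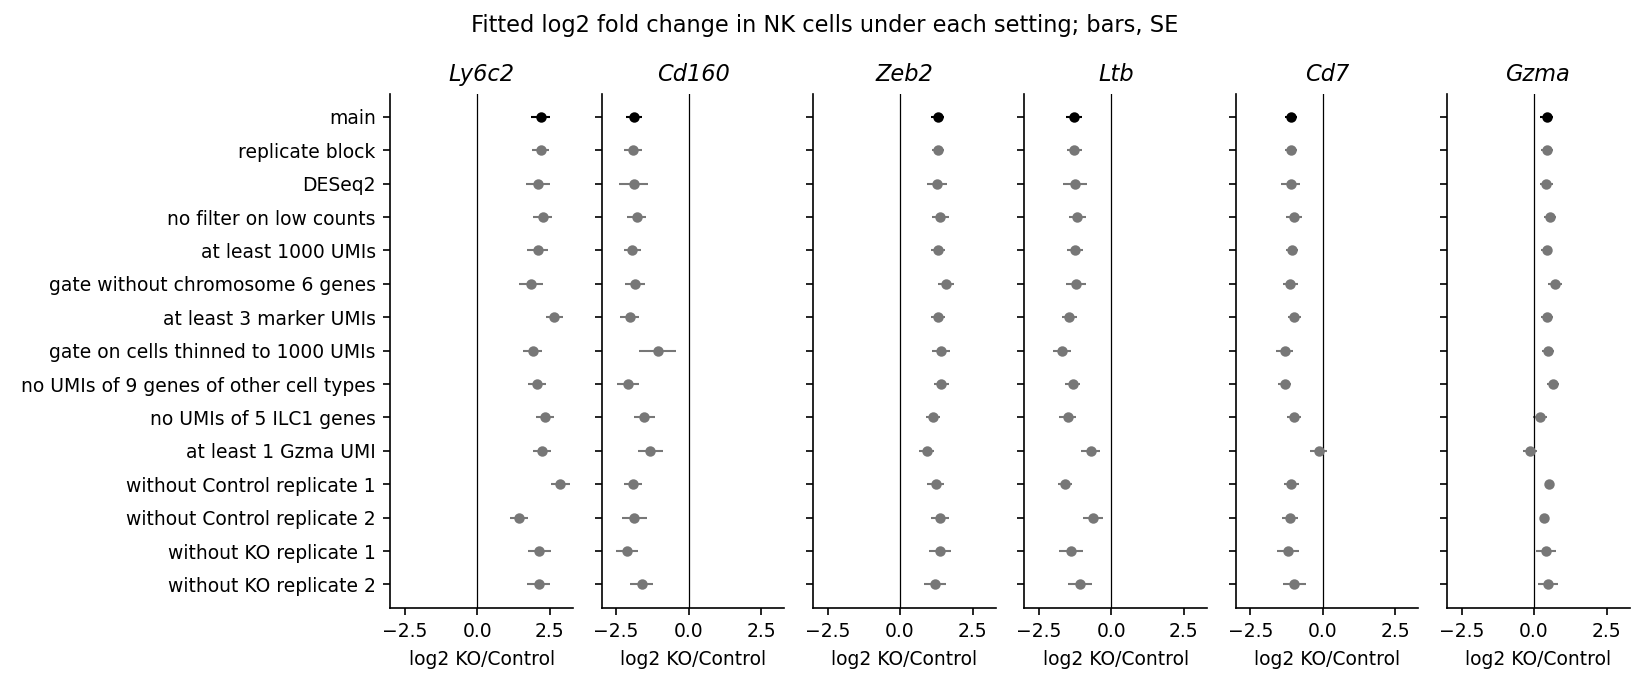
Fitted log2 fold change (KO over Control) of 6 genes in NK cells under 15 settings, with bars for the SE. Ly6c2 and Zeb2 lie above 0 and Cd160, Ltb and Cd7 below 0 in each, while Gzma lies between -0.12 and 0.71 and Cd7 reaches -0.14 among members with a Gzma UMI.

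Ly49 receptors did not move as a family. Of 13 listed genes, 6 could be tested, of which 3 had both KO libraries above both Control libraries and 1 below, and the median log2 fold change was 0.15. Without Klra8 and Klra4, which chose the cells, 2 of 4 were above and 1 below. Klra9, which codes for the inhibitory receptor Ly49I, stood at 134, 144, 289 and 319.7 CPM (log2 1.12 ± 0.24, edgeR adjusted p = 0.157). Klra3, the inhibitory Ly49C, stood at 134, 127, 189 and 195 CPM. Klra9 and Klra3 were both higher in the KO libraries with no overlap, as were 22.3% of all genes tested.

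Klra7, the inhibitory Ly49G, stood at 444, 725, 397 and 399 CPM, below Control in both KO libraries, and Klra1, the inhibitory Ly49A, at 61.9, 100.5, 82.9 and 62.8 CPM. Klra8 and Klra4 helped to choose the cells, so their values are only described. Klra8 stood at 351, 437, 594 and 729.5 CPM and Klra4 at 454, 765, 474 and 551 CPM. Klra8 was separate between the groups and Klra4 overlapped. Ly49 genes are near copies of each other: of all stretches of 60 bases in annotated transcripts, 27.3% in Klra8, 22.2% in Klra9, 12.4% in Klra3 and 9.21% in Klra7 occur in another Ly49 gene or pseudogene. Klra3 shared its stretches most with Klra9. Reads from such stretches could be lost or split, so both differences and likeness between members are uncertain.

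**Figure D4:**
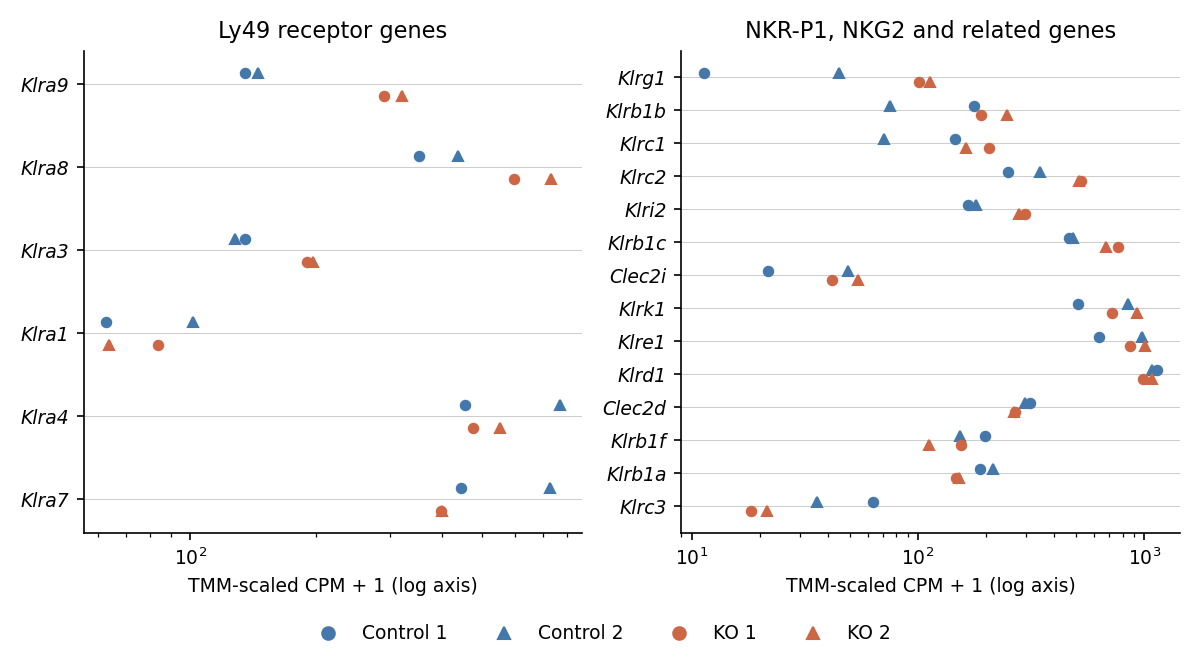
TMM-scaled CPM (log axis, 1 added) of the Ly49 genes and of the NKR-P1, NKG2 and related genes in NK cells of each library, ordered by fitted fold change. Klra9, Klra8 and Klra3 have both KO libraries above both Control libraries, and Klra7 has both below.

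Among NKR-P1, NKG2 and related genes, 14 of 17 could be tested. Both KO libraries lay above both Control libraries in 6 and below in 3, 6 had an unadjusted p under 0.05, all higher, and the median log2 fold change was 0.27. Without Klrb1c, which chose the cells, 5 of 13 were higher and 3 lower, with a median of 0.26. Klrc2, the activating NKG2C, stood at 248, 345, 524 and 512 CPM. Klrc1, its inhibitory counterpart NKG2A, stood at 145, 69.9, 204 and 163 CPM, and Klri2, another lectin-like receptor, at 165, 179, 295 and 279 CPM. All 3 were separate between groups. Klrd1 (CD94), the partner of both NKG2 proteins, overlapped at 1136, 1075, 979 and 1083 CPM. Klrk1, the activating NKG2D, overlapped at 506, 843, 715 and 926 CPM. Klrb1a and Klrb1f, of the NKR-P1 family, stood at 186, 214, 147 and 150.3 CPM and at 196, 153, 154 and 111 CPM.

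Of the genes of the rule, Klrb1c stood at 465, 481, 765 and 673 CPM and Ncr1, on chromosome 7, at 609, 520.0, 472 and 455 CPM. Of 18 tested genes of the distal segment of chromosome 6 that holds the receptor cluster, 5 had both KO libraries above and 5 below both Control libraries. Without Klrb1c, Klra8 and Klra4, which chose the cells, these were 3 and 5 of 15. The gene with the largest difference was Emp1, an epithelial membrane protein gene, at 31.0, 48.1, 5.78 and 12.3 CPM from 3 to 11 UMIs.

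Effector genes had no common direction. Of 21 granule and death ligand genes, 18 could be tested, 6 were separate with KO higher and 4 with KO lower, and the median log2 fold change was 0.02. Gzma, the most abundant, stood at 5885, 5095, 7537 and 7236 CPM (log2 0.44 ± 0.21, edgeR adjusted p = 0.470), separate between groups. Gzmb (granzyme B) stood at 320.0, 441, 604 and 699 CPM and Prf1 (perforin) at 392, 428, 690.3 and 657 CPM, also separate, with edgeR adjusted p-values of 0.301 and 0.287. Nkg7, a granule membrane protein, overlapped at 2034, 2669.7, 2194 and 2409.8 CPM, as did Srgn, the granule proteoglycan serglycin, at 1167, 957, 972 and 863 CPM. Tnfsf10, which codes for the death ligand TRAIL carried by liver ILC1 and immature NK cells, stood at 61.9, 52.4, 9.64 and 5.46 CPM from 6, 12, 5 and 4 UMIs. It was filtered out as too low in some alternatives.

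Cytokine and chemokine genes did not share a direction. Of 14, 9 could be tested, with 1 separate higher and 2 separate lower in KO and a median log2 fold change of 0.00. Ccl5, the most abundant, a chemokine that draws T cells and monocytes, stood at 11749, 12239, 11636 and 12285 CPM. Ccl4, another inflammatory chemokine, ranged from 1328 CPM in Control 2 to 4780 CPM in Control 1, with the KO libraries between them. Ifng, which codes for interferon gamma, was separate at 516, 393, 582 and 646 CPM.

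Transcription factors of the lineage were mixed. Of 22, 20 could be tested, 7 were separate higher and 2 separate lower in KO, and the median log2 fold change was 0.14. Id2, which all innate lymphoid cells need, stood at 1280.2, 1162, 1384 and 1531 CPM. Tbx21, which codes for T-bet, stood at 165, 153, 164 and 146 CPM, and Eomes, part of the rule, at 268, 437, 389 and 418 CPM. Irf8, which NK cells need for their response to virus, was separate at 196, 472, 729 and 679 CPM. Klf2, a factor for quiescence and recirculation, stood at 795, 1036, 1174 and 1555 CPM, and Tox, a factor for NK development, at 103, 91.8, 52.1 and 47.8 CPM.

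Receptors for cytokines and for contact were mixed too. Of 25 cytokine receptor and signalling genes, 20 could be tested, 7 were separate higher and 2 lower. Il18r1 and Il18rap, the chains of the interleukin-18 receptor, stood at 217, 240.3, 376 and 455 CPM and at 145, 293, 451 and 415 CPM. Il2rb, shared by the receptors for interleukin-2 and interleukin-15, overlapped at 712, 970.0, 872 and 921 CPM. Of 18 homing and adhesion genes, all measured, 9 were separate higher and 2 lower, and the median was 0.33 on the log2 scale. Without Itgam, 8 of 17 were higher and 2 lower, with a median of 0.32.

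The study's title links CYR61 to SYK and NF-kappaB in macrophages, so the same genes were read in NK cells. Syk, a kinase below receptors with ITAM adaptors, stood at 103, 96.1, 86.8 and 104 CPM (log2 -0.03 ± 0.29). The adaptor Tyrobp (DAP12) stood at 2261, 2766, 2003 and 2361 CPM and Fcer1g at 2147, 2189, 1822 and 2089 CPM. Among 23 tested activating receptors and adaptors, 2 were separate higher and 6 lower, with a median of -0.09 (5 lower of 22 without Ncr1, which chose the cells). Of 7 tested integrin and proteoglycan genes whose products bind CYR61, 2 were separate higher and 1 lower, and the median was -0.06. Among the higher was Itgam, which chose the cells, and without it 1 of 6 was higher and 1 lower, with a median of -0.23. Itgb2, the partner chain of CD11b, stood at 237, 306, 368 and 377 CPM.

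Of 21 tested NF-kappaB subunits, inhibitors and targets, 11 were separate higher and 2 lower in KO, with a median log2 fold change of 0.30. The subunit Nfkb1 stood at 145, 184, 162 and 175 CPM, and Rela at 31.0, 52.4, 61.7 and 61.5 CPM. Nfkbia (I-kappaB alpha), an inhibitor that the pathway induces, was separate at 516, 638, 945 and 906 CPM. Tnfaip3 (A20), which DESeq2 called, stood at 506, 472, 1005 and 944 CPM (log2 1.01 ± 0.21, edgeR adjusted p = 0.157, DESeq2 adjusted p = 0.0260).

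Immediate early and heat shock genes, which digestion and thawing also induce, leaned the same way. Of 31 tested, 14 were separate higher and 5 lower, and their median was 0.30 on the log2 scale. Hspa1b, a heat shock protein gene, stood at 527, 371, 1321 and 911 CPM (edgeR adjusted p = 0.126, DESeq2 adjusted p = 0.00503). In T cells its plain CPM was 876, 724, 1356 and 863, so the KO 1 library was highest in both cell types. Fos stood at 2447, 1765, 2593 and 2761 CPM and Junb at 2013, 2049, 2499 and 2508 CPM. The part of sample handling was not tested.

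Ribosomal protein genes, a list added after their values were seen, mostly stood lower in KO. Of 78 tested, 76 had a negative log2 fold change, 59 were separate with KO lower and 0 with KO higher, and the median was -0.51. They took 23.8, 27.1, 20.1 and 19.9% of NK cell UMIs. Rps18 stood at 3221, 4256, 1947 and 2163 CPM and Rps15a at 5771, 6598, 3536 and 3492 CPM, both called by DESeq2, and neither passed in edgeR (adjusted p = 0.225 for each). In T cells of the same libraries the share was 29.2, 33.6, 33.4 and 33.7%, and in B cells 28.2, 29.5, 28.4 and 26.7%. In ILC1-gated cells it was 24.1, 25.1, 22 and 22.6%. So the KO libraries were below both Control libraries in NK and ILC1-gated cells, and overlapped in T and B cells. Among members with a Gzma UMI the NK shares were 23.1, 26, 20 and 19.7%, and in cells of at least 1000 UMIs they were 25, 27.7, 20.9 and 20.1%.

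**Figure D5:**
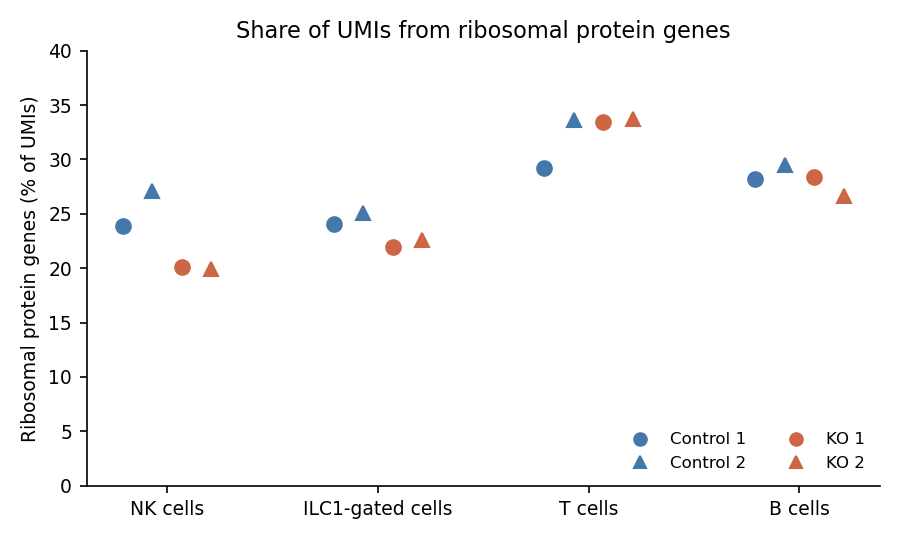
Percentage of UMIs from ribosomal protein genes in NK, ILC1-gated, T and B cells of each library. NK cells stand at 23.8 and 27.1% in Control and at 20.1 and 19.9% in KO, while T cells show no such order.

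Whether the genotype difference in NK cells departed from that in T cells was tested directly, as the interaction of cell class and genotype with the library as a block (edgeR quasi-likelihood, Benjamini-Hochberg over 10080 genes). It called 151 genes (1.5%), 50 with a higher (0.496%) and 101 with a lower (1.0%) effect in NK cells, and 736 (7.3%) had an unadjusted p under 0.05. In T cells alone edgeR called 3 of 11966 genes (0.0251%). Of the 78 ribosomal protein genes, 65 were among the lower and 0 among the higher. The p-values rest on 2 libraries per group. That a single cell can drive a call is seen in Hbb-bs, called with 1333 of its NK cell UMIs in 1 cell. With the gate without chromosome 6 genes the ribosomal calls numbered 1, while 76 of 78 values were negative with a median of -0.34, against -0.51 as gated. The calls were 10 to 65 when a library was left out (10 without KO 2, 13 without KO 1, 31 without Control 2), with 77 to 79 negative values each time.

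Ly6c2 had a log2 difference of 1.90 ± 0.22 between the effects (adjusted p = 3.64e-15), since T cells stood at 657, 571, 833 and 765 CPM. In NK cells its plain CPM was 209, 72.3, 602 and 627, so the Control libraries differed from each other. The SE and p-value do not carry that spread in full, and the size of the p-value overstates the certainty. Zeb2 differed by 1.17 ± 0.25 (adjusted p = 0.00040), as T cells overlapped at 65.8, 37.3, 57.5 and 51.7 CPM. Tnfaip3 (0.89) and Hspa1b (0.99) also had a higher effect in NK cells. Cd160 (-1.66), Ltb (-0.98) and Cd7 (-0.96) had a lower one. Gzma had a lower effect in NK cells by -0.93 (adjusted p = 2.45e-15), although its plain CPM there was 5669, 4685, 7898 and 7795. T cells, a gate that keeps NKT cells, went from 120 and 120 CPM in Control to 289 and 383 CPM in KO. Of these T cells, 2.91, 3.59, 12.0 and 11.8% held a Klrb1c UMI, so the make-up of that gate may have differed too. Its part in the Gzma difference was not tested.

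Against ILC1-gated cells the same interaction called 6 of 2272 genes (0.264%), 4 with a higher effect in NK cells (0.176%) and 2 with a lower one (0.088%), and 132 (5.81%) had an unadjusted p under 0.05. Gzma differed by 3.64 ± 0.78 (adjusted p = 0.0217), and in ILC1-gated cells it stood at 2833, 0, 204 and 31.6 CPM, with the Control 1 value from 1 cell of 16. Dennd4a, a regulator of Rab10, differed by 1.63 ± 0.35 (adjusted p = 0.0222), at 259, 325, 661 and 696 CPM in NK cells and 592, 628, 442 and 426 CPM in ILC1-gated cells. The count was 0 to 9 when a library was left out, and 0 without KO 1. In ILC1-gated cells alone edgeR called 0 of 1127 genes (71 at an unadjusted p under 0.05, 6.3%).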

How the data were processed

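The authors deposited raw UMI count matrices, 1 per library, made with Cell Ranger 3.1.0 on mm10, per the submitters' processing notes. All 32285 gene IDs were read, and 99.6% matched GENCODE M21 (GRCm38). Cells were gated as described, and their counts were summed per library. CPM were computed from these sums, scaled by TMM in edgeR 4.0.16 (R 4.3.3) for NK genes and unscaled between cell types. Genes were filtered by filterByExpr (minimum count 10) and tested with edgeR's quasi-likelihood test with Benjamini-Hochberg adjustment at 0.05. DESeq2 1.42.0 was an alternative. The scripts were tested on simulated data. Scrublet (scanpy 1.11.5) marked 0.0 to 1.45% of cells as doublets, and under 0.5% in 3 libraries, where it did not work. The cells with the highest doublet scores, at 0.8% of barcodes for each 1000 barcodes, were therefore left out in an alternative only. The NK cells, the gene lists and the genes were chosen with earlier results of these data known. Named by rule were the markers, Itgam, all Ly49, NKR-P1 and NKG2 genes, the called genes of each list, and its 3 most abundant where fewer than 3 were called. Between libraries of a group, counts differed by more than sampling noise (chi-square per degree of freedom 3.22 and 3.70). Members of the early maturation and homing lists that are not reported here were taken out of those lists, and their counts and medians are over the remaining genes.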

Additional observations from a re-analysis of the deposited data

Results flagged for a closer look

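Effects of genotype that differed between cell types by an interaction test (edgeR quasi-likelihood) are given here on the log2 scale, as the effect in NK cells minus that in the other class. Against T cells 151 genes differed. In NK cells the effect was higher for Ly6c2 (1.90), Zeb2 (1.17), Hspa1b (0.99), Irf8 (0.98), Tnfaip3 (0.89), Lgals1 (0.74), Ccl4 (0.72), Ccl5 (0.56) and Fos (0.50). It was lower for Tnfsf10 (-2.22), Cd160 (-1.66), Ltb (-0.98), Cd7 (-0.96), Gzma (-0.93), Klra7 (-0.83), Rps15a (-0.57) and Rps18 (-0.56). Such an effect compares 2 classes and need not be a rise or fall in NK cells. In T cells, plain CPM of Lgals1 was 1208, 555, 541 and 568, and that of Ccl5 was 7609, 6690, 4612 and 5877. In NK cells, Ccl4 stood at 4605, 1222, 2867 and 2419 plain CPM, with KO between the Control libraries. Differences in H2-Eb1 (-1.69), S100a9 (-1.35), Hbb-bs (5.19) and Hist1h2ap (-1.98) rest largely on single cells, which held 59 of 70 UMIs of H2-Eb1 in Control 1, 39 of 53 of S100a9 in Control 2, 1333 of 1334 of Hbb-bs in KO 1 and 48 of 83 of Hist1h2ap in Control 1. Against ILC1-gated cells 6 genes differed, among them Gzma (3.64), Dennd4a (1.63), the ribosomal RNA-like transcript Gm42418 (-0.48) and Ckb, brain creatine kinase (-4.65).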

How the results depend on the processing

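The number of genes called in NK cells, 0 as reported, and how many of the 74 named genes were among them, depended on the setting. They were 16 and 8 with DESeq2, 75 and 20 with no filter on low counts, 3 and 3 without hepatocyte and haemoglobin genes, 2 and 2 with the gate without chromosome 6 genes, 3 and 3 with at least 3 marker UMIs, and 6 and 4 with the gate on thinned cells. Settings added after the data were seen gave 20 and 13 without members holding any of 9 genes of other cell types, 23 and 7 with at least 1 Gzma UMI, and 5 and 4 without members holding any of 5 ILC1 genes. Leaving out 1 library gave 17 to 36 and 4 to 10. The replicate block gave 27 and 17, and the NK share 1.68 (adjusted p = 0.00705). Labels do not say that a number marks a shared batch, and same-numbered libraries deviated together only weakly (correlation 0.105). With 2 libraries per group, this value is the same for both pairs by construction.

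The NK share difference was 1.42 to 1.91 when a library was left out, and without Control 1 (1.68) its adjusted p was 0.0505. Under all other settings it stayed past the threshold, at 1.5 to 2.17. Genes with a different effect numbered 29 against T cells and 10 against ILC1-gated cells with the gate without chromosome 6 genes. They numbered 26 to 113 and 0 to 9 when a library was left out (26 without KO 1, 36 without KO 2 and 67 without Control 2 against T cells). For these, the cause was not tested.

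Log2 fold changes turned with the gate on thinned cells for Ccl5 (-0.26), Ifng (-0.19) and Hist1h2ap (1.0). They turned among members with a Gzma UMI for Gzma (-0.12), Lgals1 (-0.36), Ccl5 (-0.27), Itgax (0.12) and Tox (0.39), and for Klra4 with the gate without chromosome 6 genes (0.12). Without 1 library they ranged from -0.59 to 0.20 for Klra4, -0.052 to 0.72 for Klrk1, -0.23 to 0.20 for Nkg7 and -0.92 to 0.89 for Ccl4.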

Other observations

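Gene groups outside the NK programme gave these values in NK cells, with 0 of 4875 genes called by edgeR. Histone genes, a list added after their values were seen, had 12 tested members, of which 10 were lower in both KO libraries than in both Control libraries. Their median log2 fold change was -1.29, but Hist1h2ap, a replication-dependent histone gene, had 48 of 83 UMIs of Control 1 and 23 of 27 UMIs of Control 2 in 1 cell each. Of 13 tested interferon response genes, 2 were separate higher and 3 lower, with a median of -0.32. Of 20 tested genes of MHC class I presentation, 4 were separate higher and 6 lower, with a median of -0.14. Of 13 mitochondrially encoded respiratory chain genes, 1 was separate higher and 0 lower, with a median of 0.05. Of 14 tested Bcl2 family and apoptosis genes, 4 were separate higher and 2 lower, with a median of 0.21.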
